A study of Mus musculus with 12 samples.

Results

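Adgrf1, Clec2h, Itih5, Olfm3 and Mei4 are 5 genes of the mouse liver, outside the known methionine pathways, whose transcript level moved the same way with dietary methionine restriction in progeroid and in wild-type mice. They were selected on their diet differences in these same arrays, restricted against control diet within each genotype, and they are 5 of the 19938 genes measured. Their diet values are therefore given below as a description without a test, and tests are given for genotype differences, which the choice did not use. Diet and genotype share each gene's spread between arrays, so a choice that favours a small spread could lower the genotype p-values as well. The genotype comparisons on a single diet also share arrays with the diet differences.

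Liver RNA of male C57BL/6N mice, 110 days old and fasted for 6 hours, was measured on 12 Affymetrix Mouse Gene 1.0 ST arrays. Mice homozygous for Lmna G609G (KI) carry a germline knock-in allele that models Hutchinson-Gilford progeria, and they and their wild-type controls (WT) came from crosses of heterozygous parents. A methionine-restricted diet (MR) or a control diet (CD) was started at 7 weeks of age, and every group, wild type included, received solid and crushed pellets together to ease feeding of the mutants. The groups KI_MR, KI_CD, WT_MR and WT_CD held 3 arrays each. Whether every array stands for its own mouse is not stated, so p-values measure only the spread between these samples, which may be technical.

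Methionine is an essential amino acid that feeds protein synthesis, methyl group transfer and the making of cysteine, taurine and glutathione, all of which are prominent in liver. Its restriction is known to change the expression of liver genes for amino acid, sulfur and lipid metabolism. The 5 genes have other known roles. Adgrf1 (also Gpr110) encodes an adhesion G protein-coupled receptor that is activated by the lipid amide synaptamide. Clec2h encodes Clr-f, a C-type lectin-related cell surface protein of the natural killer gene complex, which is bound by a receptor of the Nkrp1 family. Itih5 encodes a secreted heavy chain of the inter-alpha-trypsin inhibitor family, whose members bind hyaluronan in the extracellular matrix. Olfm3 (optimedin) encodes a secreted olfactomedin-domain glycoprotein known mainly from brain and retina. Mei4 encodes a protein that germ cells need to make the DNA double-strand breaks that start meiotic recombination.

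Each of the 5 genes was read by a single probe set. By RefSeq annotation on GRCm38.p6 all lie on the + strand, and each stands on a chromosome of its own. Adgrf1 spans chr17:43270283-43325876, Clec2h chr6:128662385-128677374, Itih5 chr2:10153536-10256529, Olfm3 chr3:114904078-115125764 and Mei4 chr9:81863670-82206007. Promoter windows of RefSeq, from 250 bases before to 50 bases after a transcript start, are shown for 4 of the genes because 3 of them fell together with the diet while Mei4 rose. Capitals mark the only match found to the motifs searched.
Adgrf1, chr17:43270097-43270396: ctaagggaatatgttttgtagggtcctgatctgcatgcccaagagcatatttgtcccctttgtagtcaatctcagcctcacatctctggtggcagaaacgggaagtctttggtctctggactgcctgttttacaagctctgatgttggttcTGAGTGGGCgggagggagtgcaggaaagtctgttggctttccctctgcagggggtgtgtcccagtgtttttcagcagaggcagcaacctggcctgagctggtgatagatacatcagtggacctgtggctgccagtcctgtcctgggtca
Clec2h, chr6:128662135-128662434: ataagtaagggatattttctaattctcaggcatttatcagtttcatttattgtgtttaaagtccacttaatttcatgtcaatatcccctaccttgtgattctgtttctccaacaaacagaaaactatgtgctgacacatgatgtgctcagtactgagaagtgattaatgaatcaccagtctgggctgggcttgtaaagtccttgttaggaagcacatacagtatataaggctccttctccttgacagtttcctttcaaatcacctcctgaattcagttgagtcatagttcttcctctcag
Itih5, chr2:10153293-10153592: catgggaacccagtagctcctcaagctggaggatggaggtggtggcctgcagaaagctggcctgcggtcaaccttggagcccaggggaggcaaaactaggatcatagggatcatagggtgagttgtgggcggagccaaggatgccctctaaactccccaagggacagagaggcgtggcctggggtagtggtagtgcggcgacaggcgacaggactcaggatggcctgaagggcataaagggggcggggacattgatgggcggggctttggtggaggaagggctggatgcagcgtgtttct
Mei4, chr9:81863420-81863719: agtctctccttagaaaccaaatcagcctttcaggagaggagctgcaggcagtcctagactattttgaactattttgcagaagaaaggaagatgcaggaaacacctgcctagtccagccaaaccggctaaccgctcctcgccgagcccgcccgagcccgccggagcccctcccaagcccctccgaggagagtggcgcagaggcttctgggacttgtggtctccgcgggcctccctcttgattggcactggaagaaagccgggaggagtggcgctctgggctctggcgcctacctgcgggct

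The windows differed in base composition. That of Clec2h held 38.0% G and C and 0 CG pairs, that of Adgrf1 52.7% and 2 CG pairs, that of Itih5 60.7% and 9 CG pairs, and that of Mei4 60.7% and 16 CG pairs. The median over all 32851 promoter windows of the table was 52.7% and 7 CG pairs. Olfm3 has 2 windows, chr3:114903828-114904127 with 44.7% G and C and chr3:115080715-115081014 with 54.3%. Both strands were searched for 7 motifs, with the share of all windows that hold each. These were the amino acid response element of C/EBP and ATF factors TGATGNAA (3.97%), the antioxidant response element TGANNNNGC (41.3%), the STAT element TTCNNNGAA (8.3%), the E-box CACGTG (7.15%), the direct repeat 1 element of nuclear receptors, spaced by a single base (0.0396%), the cAMP response element TGACGTCA (1.79%) and the TATA box TATAAA (13.6%). The only match in the 6 windows was TGAGTGGGC in the Adgrf1 window, which starts at -99 and has the letters of the antioxidant response element, a motif present in 41.3% of all windows.

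Over the whole table, array medians lay between 82 and 90 intensity units and single values between 10 and 20042. Each array correlated with the others of its group at a mean r of 0.986 (KI_CD replicate 1) or 0.989 to 0.994 (the other 11). The hepatocyte markers were bright in every group, with Alb at a mean log2 level of 13.92 and Apoa1 at 13.78, and 0 of 5 passed the test in any comparison. Markers of male liver stood apart, since their summed intensity over 11 genes was 3077 to 3451 units in KI_MR, 3095 to 8985 in KI_CD, 4999 to 8197 in WT_MR and 24389 to 35748 in WT_CD. KI_CD replicate 1 had the sum of 3095 and lay with the KI_MR arrays. With diet, 1 of the 11 was called lower in KI_MR and 5 were called lower in WT_MR. The summed intensity of 9 markers of female liver was 16962 to 18292 units in KI_MR against 7772 to 12431 in KI_CD, and 10228 to 14043 in WT_MR against 1573 to 3200 in WT_CD. Of these 9, 2 were called higher in KI_MR and 1 in WT_MR. The part of these lists in the differences of the 5 genes was not tested. In whole liver, fewer cells of a type and less RNA per cell cannot be told apart. All differences below are log2 differences ± SE from a single limma fit of the 4 group means to all 12 arrays, with p-values adjusted by Benjamini-Hochberg over 19938 genes and a threshold of 0.05.

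Both diet comparisons together called 11 genes (0.0552% of all genes), each in the same direction in both genotypes, and the 5 genes are among them by choice. That count rests on single arrays, since it was 4 without KI_MR replicate 3 or KI_CD replicate 3, 5 without KI_MR replicate 1 or WT_MR replicate 1, 6 without KI_CD replicate 2 or WT_CD replicate 1, 7 without WT_CD replicate 2, 19 without KI_MR replicate 2 and 50 without KI_CD replicate 1. It was 7 with median centring, 6 with log2(value + 16) and 0 when each comparison was fitted on its own 6 arrays, where limma found 1472 genes in KI and 1715 in WT mice at an unadjusted p under 0.05. Within KI mice the diet comparison called 35 genes, of which 12 were higher (0.0602%) and 23 lower (0.115%) in KI_MR. Median centring of the arrays gave 8 higher and 10 lower. Within WT mice it called 65 genes, of which 42 were higher (0.211%) and 23 lower (0.115%) in WT_MR. The other 6 genes called in both were the complement gene C6, the clock-linked repressor gene Bhlhe41, the mitochondrial folate enzyme gene Aldh1l2, the lipoprotein receptor gene Vldlr, the cystine transporter gene Slc7a11 and Csad, which encodes an enzyme of taurine synthesis.

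Adgrf1, the receptor gene, had 58, 76 and 63 intensity units in the KI_MR arrays, against 239, 240 and 307 units in KI_CD. It had 63, 56 and 73 units in WT_MR, against 266, 263 and 404 units in WT_CD. Every restricted array was below every control array, and the WT_CD array at 404 units was the highest of all 12. On the log2 scale the diet difference was -2.00 ± 0.18 in KI and -2.26 ± 0.18 in WT mice (n = 3 each). As a ratio, KI_CD was 3.99-fold above KI_MR, and WT_CD was 4.79-fold above WT_MR. These were the 11th and 12th steepest falls of all genes in KI and WT mice, and the steepest among the 5 genes.

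Clec2h, the lectin gene, had 73, 63 and 78 units in KI_MR, against 184, 214 and 204 units in KI_CD. It had 99, 79 and 126 units in WT_MR, against 306, 229 and 277 units in WT_CD. The restricted arrays were again all below the control arrays, and within each diet the KI arrays were all below the WT arrays. The diet difference was -1.49 ± 0.16 in KI and -1.43 ± 0.16 in WT mice, which corresponds to 2.82-fold and 2.7-fold higher levels on the control diet. C6, in the list of male-biased liver genes, differed with diet by -1.64 ± 0.27 in KI and -2.65 ± 0.27 in WT mice. It was the 1 gene of that list called in KI mice. The 11 measured genes of the list ranged from -2.71 to -0.10 in KI and from -6.68 to -1.09 in WT mice.

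Itih5, the matrix gene, had 104, 105 and 115 units in KI_MR, against 214, 169 and 181 units in KI_CD. It had 65, 65 and 79 units in WT_MR, against 120, 144 and 144 units in WT_CD. Restricted arrays were below control arrays in each genotype, and here the KI arrays were all above the WT arrays of the same diet. The diet difference was -0.79 ± 0.11 in KI and -0.97 ± 0.11 in WT mice, so that KI_CD was 1.73-fold above KI_MR and WT_CD 1.95-fold above WT_MR.

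Olfm3, the olfactomedin gene, had 57, 62 and 57 units in KI_MR, against 99, 91 and 120 units in KI_CD. It had 63, 71 and 66 units in WT_MR, against 128, 123 and 104 units in WT_CD. The restricted arrays formed a narrow range of 57 to 71 units below all control arrays. The diet difference was -0.81 ± 0.11 in KI and -0.82 ± 0.11 in WT mice, or 1.75-fold and 1.77-fold higher levels on the control diet.

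Mei4, the meiotic gene, was the only member that was higher on the restricted diet. It had 54, 46 and 49 units in KI_MR, against 33, 35 and 33 units in KI_CD. It had 50, 60 and 49 units in WT_MR, against 38, 36 and 34 units in WT_CD. All restricted arrays were above all control arrays, with log2 differences of 0.56 ± 0.09 in KI and 0.55 ± 0.09 in WT mice. The probe set was dim. The lower quartile of gene levels was 45 to 51 units by array, and Mei4 lay below it in 3 of 3 KI_CD and 3 of 3 WT_CD arrays, in 1 KI_MR array and in 0 WT_MR arrays. The files give no detection calls. With the KI_CD and WT_CD arrays raised to that quartile and the restricted arrays kept as measured, KI_MR was 1.08-fold above KI_CD. In the same way WT_MR was 1.08-fold above WT_CD. The other 4 genes were above the quartile in every array.

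**Figure D1:**
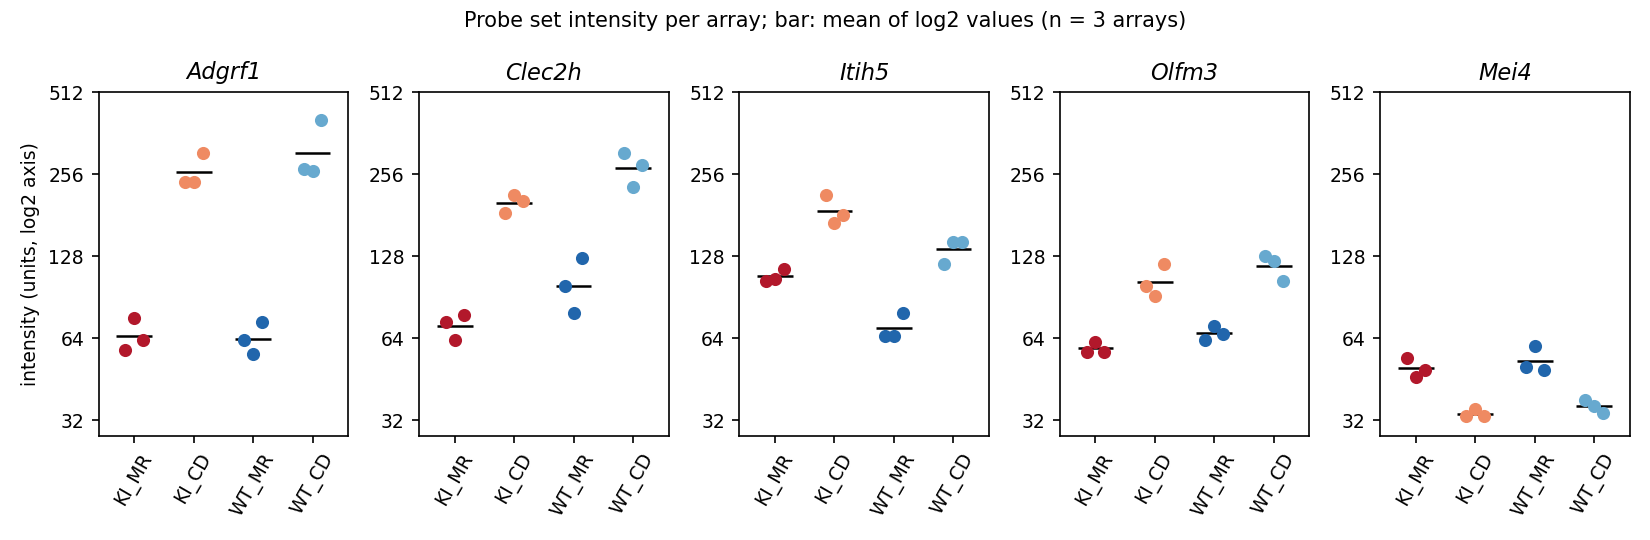
Intensity of Adgrf1, Clec2h, Itih5, Olfm3 and Mei4 in each of the 12 arrays, in intensity units on a log2 axis, by group, with a bar at the mean of the log2 values of 3 arrays. The 6 restricted arrays lie below the 6 control arrays in the first 4 panels and above them for Mei4, whose values run from 33 to 60 units.

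For Adgrf1, Clec2h, Itih5 and Olfm3 all 6 MR arrays were below all 6 CD arrays, an arrangement shown by 0.481% of all genes. For Mei4 all 6 were above, as for 0.401% of all genes. Within a genotype, 3 restricted arrays below 3 control arrays held for 6.99% of all genes in KI and 5.17% in WT mice, and 3 above for 3.67% in KI and 6.35% in WT mice. These counts follow from the choice of the genes. The diet difference in KI minus that in WT mice was 0.26 ± 0.25 for Adgrf1, -0.06 ± 0.23 for Clec2h, 0.17 ± 0.16 for Itih5, 0.02 ± 0.16 for Olfm3 and 0.00 ± 0.13 for Mei4. Leaving out any single KI array, KI_CD replicate 1 included, kept the KI diet difference at -2.11 to -1.88 for Adgrf1, -1.56 to -1.41 for Clec2h, -0.87 to -0.70 for Itih5, -0.89 to -0.70 for Olfm3 and 0.50 to 0.61 for Mei4. Without any single WT array the WT diet difference was, in the same order, -2.37 to -2.06, -1.60 to -1.27, -1.06 to -0.92, -0.91 to -0.76 and 0.46 to 0.61. The choice of the genes used these same diet differences, so the ranges are a description. The differences between genotypes are each close to their own SE or below it, and because the genes were chosen for being alike in both genotypes they were not tested.

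**Figure D2:**
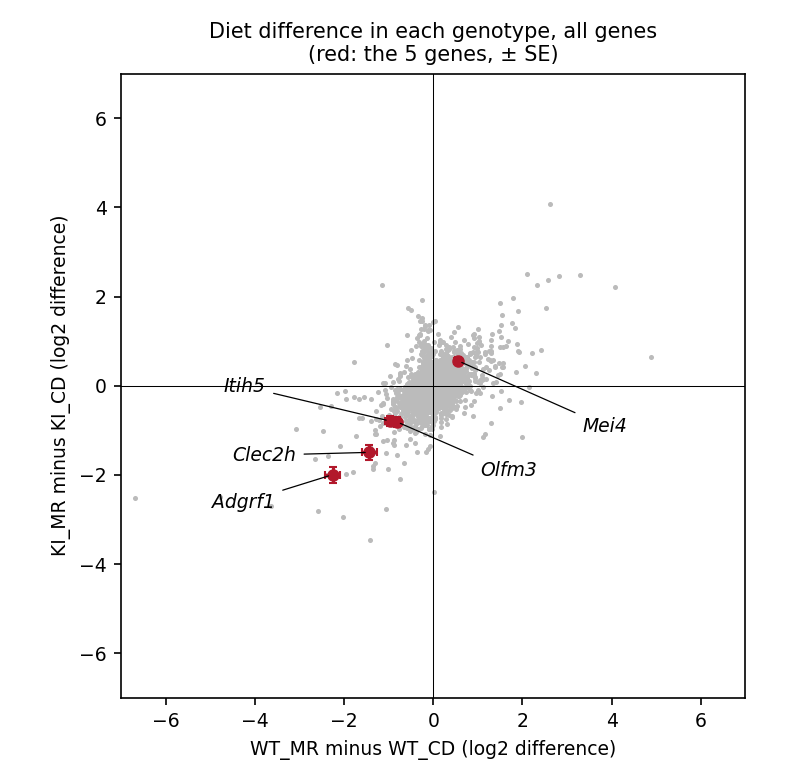
Log2 difference between restricted and control diet in KI mice (vertical axis) and in WT mice (horizontal axis) for all 19938 genes in grey, with the 5 genes in red (bars: SE). Adgrf1 lies at -2.00 in KI and -2.26 in WT mice and Mei4 at 0.56 in KI and 0.55 in WT mice, and all 5 lie in the quadrants of equal sign, as their choice requires.

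Across the 12 arrays the levels of Adgrf1, Clec2h, Itih5 and Olfm3 correlated with each other at r of 0.619 (Clec2h with Itih5) to 0.933 (Adgrf1 with Clec2h), and with Mei4 at r of -0.954 to -0.834. All these arrays share the split by diet, so the values describe that split. The genes most like each member over the 12 arrays were Bhlhe41 (r = 0.95), Snap47 (0.943) and Hao1 (0.937) for Adgrf1. Within the 6 MR arrays alone r was 0.25 for Bhlhe41, 0.86 for Snap47 and 0.94 for Hao1, the gene of a liver glycolate oxidase. Within the 6 CD arrays it was 0.41, 0.66 and 0.77 in the same order. C6 (0.957), C4bp (0.945), which encodes a complement regulator, and Snap47 (0.935) were most like Clec2h. With C6 the value was 0.77 within the 6 MR arrays and 0.91 within the 6 CD arrays. Trip12 (0.955), the gene of a ubiquitin ligase, Rbms2 (0.934) and the kinase gene Ikbkb (0.931) were most like Itih5, and Trip12 kept an r of 0.97 within the MR arrays and 0.94 within the CD arrays. Trip12 differed with diet by -0.13 in KI and -0.18 in WT mice, neither called. The 6 arrays of a diet hold both genotypes, so every r within a diet includes the genotype difference. Olfm3 was most like Bhlhe41 (0.954), Cyp4f14 (0.926) and Adgrf1 (0.926). Its r with Adgrf1 was -0.02 within the MR arrays and 0.14 within the CD arrays. Mei4 was most like Csad (0.956), the hormone gene Adm2 (0.944) and Aldh1l2 (0.93). For these r was 0.68, 0.48 and 0.21 within the MR arrays and 0.72, 0.74 and 0.23 within the CD arrays.

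The genes related to each member by family or pathway did not pass the test with diet. Of 65 such genes in 8 lists, 0 were called by limma in KI mice (2 at an unadjusted p under 0.05) and 0 in WT mice (3 at an unadjusted p under 0.05), where 0.176% and 0.326% of all genes were called. Over all 19938 genes, 1551 in KI and 1633 in WT mice were at an unadjusted p under 0.05 in limma. The median difference of the 65 was -0.03 in KI and 0.00 in WT mice, against -0.02 and 0.00 over all genes.

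By role, 2 of the 3 other measured Adgrf receptor genes were below the lower quartile of gene levels. The 3 genes differed with diet by 0.02 to 0.20 in KI and by 0.01 to 0.10 in WT mice. Among them Adgrf5, a receptor gene of lung and endothelium, had a mean level of 9.05 (log2) and differed by 0.20 ± 0.15 in KI and 0.10 ± 0.15 in WT mice. The 8 measured genes of the ligand and signalling list ranged from -0.25 to 0.18 in KI and from -0.12 to 0.22 in WT mice. In it Faah, whose product degrades fatty acid amides such as synaptamide, differed by -0.14 ± 0.10 in KI and -0.12 ± 0.10 in WT mice.

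The 7 other Clec2 genes ranged from -0.20 to 0.07 in KI and from -0.26 to 0.04 in WT mice, and 3 of them were below the lower quartile. Clec2d, which encodes another Clr ligand, differed by -0.05 ± 0.16 in KI and -0.26 ± 0.16 in WT mice. The 5 Nkrp1 receptor genes, which natural killer cells express, were all below the lower quartile of gene levels and ranged from -0.10 to 0.09 in KI and from -0.02 to 0.02 in WT mice. Klrb1, the gene of the Nkrp1 receptor that binds Clr-f, differed by -0.08 ± 0.09 in KI and 0.01 ± 0.09 in WT mice. Of 7 markers of natural killer and T cells, 4 of them below the lower quartile, 0 were called in any comparison.

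The 5 genes of the other inter-alpha-trypsin inhibitor chains and of bikunin (Ambp), which hepatocytes secrete into plasma, ranged from -0.40 (Itih3) to 0.00 in KI and from -0.18 to 0.18 in WT mice. The 14 hyaluronan genes ranged from -0.21 to 0.07 in KI and from -0.13 to 0.09 in WT mice, and 9 of them were below the lower quartile. Among 11 olfactomedin genes Gldn differed by -0.88 ± 0.50 in KI mice (adjusted p = 0.784) and Olfml1 by -0.80 ± 0.21 in WT mice (adjusted p = 0.178), neither past the threshold in limma.

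The 12 other genes of meiotic recombination ranged from -0.10 to 0.17 in KI and from -0.11 to 0.12 in WT mice, with 8 of 12 below the lower quartile. The partner gene Rec114 differed by -0.08 ± 0.09 in KI and 0.00 ± 0.09 in WT mice. Spo11, whose product cuts the DNA, differed by -0.02 ± 0.07 in KI and -0.02 ± 0.07 in WT mice. Of 6 germ cell markers 5 were below the lower quartile, and their summed intensity was 166 to 176 units in KI_MR, 168 to 175 in KI_CD, 168 to 179 in WT_MR and 174 to 185 in WT_CD.

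**Figure D3:**
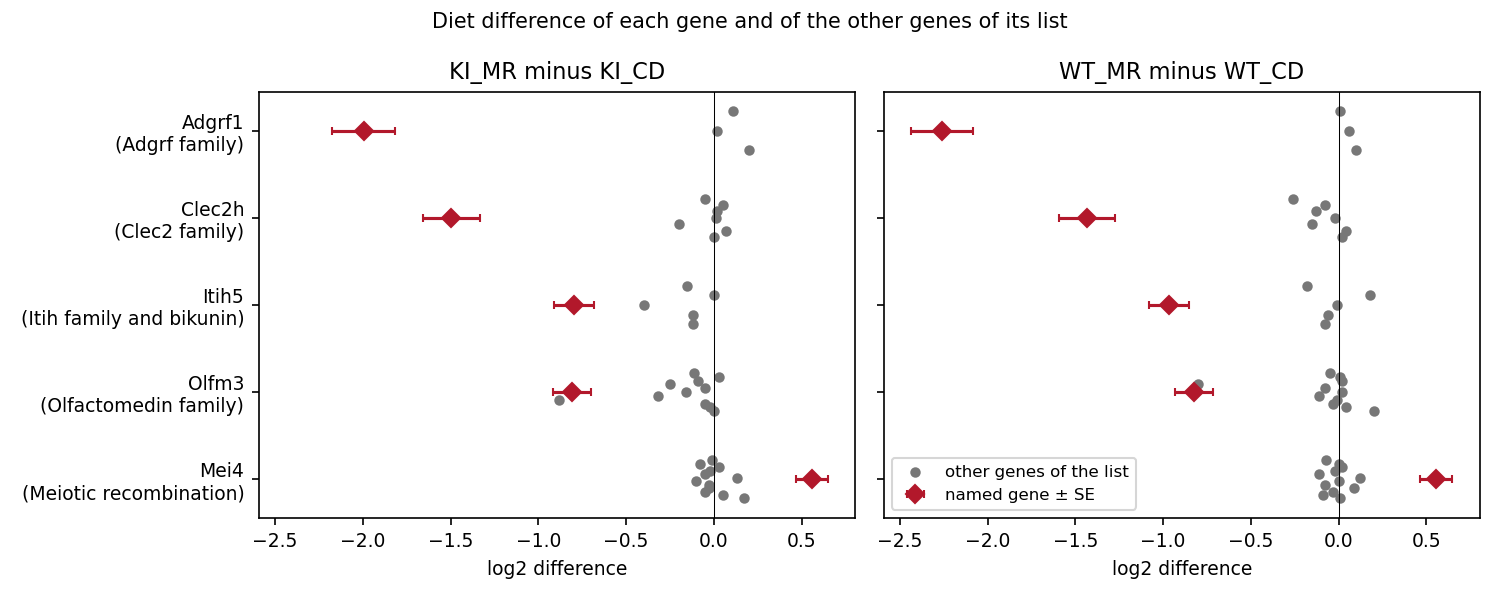
Log2 difference between restricted and control diet in KI mice (left) and WT mice (right) for each of the 5 genes (red, ± SE) and for the other genes of its family or pathway list (grey). Adgrf1 at -2.00 and -2.26 stands outside the range of 0.01 to 0.20 of the 3 other family genes, 2 of them below the lower quartile. Gldn at -0.88 in KI mice and Olfml1 at -0.80 in WT mice lie near Olfm3.

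The 30 nearest protein-coding neighbours, 3 on each side of every member, were examined for diet as well. Of these 0 were called in KI mice (0 at an unadjusted p under 0.05 in limma) and 0 in WT mice (3 at an unadjusted p under 0.05). Over all genes 0.176% were called in KI and 0.326% in WT mice. Around Itih5 the neighbour Pfkfb3, a gene of glycolysis control, differed by -0.48 ± 0.25 in KI and -0.84 ± 0.25 in WT mice (adjusted p = 0.733 and 0.274 in limma).

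Genotype was tested as the mean of both diets and on each diet. The mean over both diets called 561 genes (2.81%), 394 higher (1.98%) and 167 lower (0.838%) in KI mice, and quantile normalization gave 272 higher and 195 lower. Itih5 was the only member called, 1 of 5, and it rose in KI mice. Its mean log2 level was 6.75 ± 0.08 in KI_MR against 6.12 ± 0.16 in WT_MR, and 7.55 ± 0.18 in KI_CD against 7.08 ± 0.15 in WT_CD (SD, n = 3 each). Averaged over both diets the difference was 0.55 ± 0.08, or 1.47-fold (limma adjusted p = 0.00933). Under all 19 alternatives tried for this value it was called, at 0.48 to 0.60 with an adjusted p of 0.00675 to 0.0313.

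On each diet the 3 KI arrays were above the 3 WT arrays for Itih5, which held for 7.5% of all genes on the restricted diet and 8.57% on the control diet. The comparison on the restricted diet called 94 genes (0.471%), 52 higher (0.261%) and 42 lower (0.211%) in KI_MR, or 26 higher and 32 lower with median centring. There Itih5 differed by 0.64 ± 0.11, or 1.56-fold (limma adjusted p = 0.0426). That call was lost with quantile normalization (adjusted p = 0.0563), median centring (0.0642), log2(value + 16) (0.0518) and the 6 compared arrays alone (0.112), and in 10 of 12 fits that left out an array, all but those without KI_CD replicate 1 or WT_MR replicate 3. On the control diet, where 16 genes were called (0.0802%), 12 higher (0.0602%) and 4 lower (0.0201%) in KI_CD, Itih5 differed by 0.47 ± 0.11 (limma adjusted p = 0.18).

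Other genes of the Itih5 list lay in the same direction without passing the test, except Itih2. The 5 genes differed by 0.08 (Ambp) to 0.46 (Itih3) as the mean of both diets, with a list median of 0.21 against -0.04 over all genes. Itih2 was called at 0.20 ± 0.05 (limma adjusted p = 0.0421), a call lost in 11 of 12 fits without an array, all but the one without WT_MR replicate 3, and in 3 of 7 other alternatives. Among 9 markers of stellate cells and fibroblasts, none below the lower quartile, 1 was called as the mean of both diets, the matrix proteoglycan gene Dcn at 0.32 ± 0.07 (limma adjusted p = 0.0324). None of the other 8 was called. Of the 9 markers, 5 lay above 0 and 4 below as the mean of both diets. The collagen genes Col1a1, Col1a2 and Col3a1 differed by -0.13, -0.13 and -0.23 and the stellate cell gene Lrat by -0.12. Des differed by 0.67 ± 0.45, Lum by 0.32 ± 0.18, Reln by 0.14 ± 0.12 and Pdgfrb by 0.02 ± 0.13. The list median was 0.02 as the mean of both diets and -0.07 on the restricted diet. The summed intensity of these 9 was 6882 to 7700 units in KI_MR against 5425 to 6010 in WT_MR, and 6280 to 8553 units in KI_CD against 6150 to 6796 in WT_CD. Dcn alone gave 4241 to 4289 of these units in KI_MR against 2942 to 3321 in WT_MR, and without it the sums overlapped, at 2637 to 3459 units in KI_MR against 2483 to 2717 in WT_MR. The part of these markers in the Itih5 difference was not tested.

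Clec2h had a mean log2 level of 6.15 ± 0.16 in KI_MR against 6.64 ± 0.34 in WT_MR, and 7.65 ± 0.11 in KI_CD against 8.07 ± 0.21 in WT_CD (SD, n = 3 each). Its KI arrays were below the WT arrays without overlap on each diet, as for 8.82% of all genes on the restricted and 10.4% on the control diet. On the restricted diet the KI arrays reached 78 units and the WT arrays began at 79 units. As the mean of both diets it differed by -0.46 ± 0.11, which missed the threshold (limma adjusted p = 0.0596). It passed when the dimmest 25% of genes were left out (adjusted p = 0.0478), and without WT_MR replicate 2 (-0.54, adjusted p = 0.0392) or WT_MR replicate 3 (-0.37, adjusted p = 0.044). The difference was -0.49 ± 0.16 on the restricted diet (limma adjusted p = 0.206) and -0.42 ± 0.16 on the control diet (limma adjusted p = 0.373). Of 11 male-biased liver genes 4 were lower in KI mice as the mean of both diets and 0 higher, and of 9 female-biased genes 3 were higher and 0 lower. The summed intensity of the female-biased genes was 16962 to 18292 units in KI_MR against 10228 to 14043 in WT_MR, and 7772 to 12431 in KI_CD against 1573 to 3200 in WT_CD. Their part in the Clec2h values was not tested.

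Adgrf1, Olfm3 and Mei4 were not called for genotype in any of the 3 comparisons. Adgrf1 differed by -0.10 ± 0.13 as the mean of both diets (limma adjusted p = 0.657), and its KI and WT arrays overlapped on each diet. Olfm3 differed by -0.19 ± 0.08 (limma adjusted p = 0.188), and its KI_CD and WT_CD arrays overlapped. Its KI_MR arrays, up to 62 units, were below its WT_MR arrays, from 63 units, as for 8.82% of all genes. Mei4 differed by -0.09 ± 0.06 (limma adjusted p = 0.395) with overlap on each diet. On the restricted diet these differences were 0.04 ± 0.18 for Adgrf1, -0.18 ± 0.11 for Olfm3 and -0.09 ± 0.09 for Mei4, and on the control diet -0.23 ± 0.18, -0.20 ± 0.11 and -0.10 ± 0.09 in the same order.

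**Figure D4:**
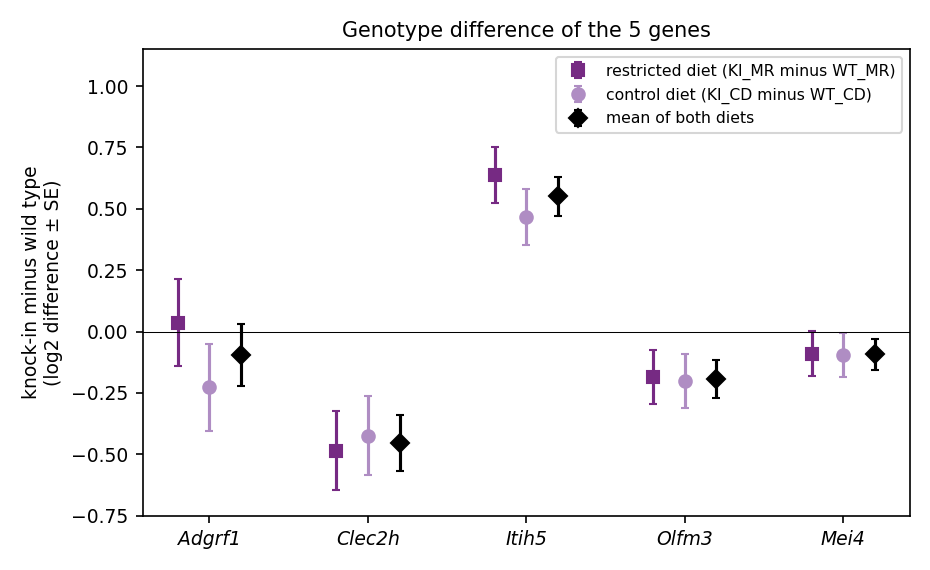
Log2 difference between KI and WT mice for each of the 5 genes on the restricted diet, on the control diet and as the mean of both (bars: SE, n = 3 arrays per group). Itih5 lies above 0 at 0.64, 0.47 and 0.55, and Clec2h lies below 0 at -0.49, -0.42 and -0.46.

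The order of the 4 groups differed between the genes. For Itih5 it ran, high to low, KI_CD, WT_CD, KI_MR and WT_MR, and for Clec2h WT_CD, KI_CD, WT_MR and KI_MR, with no overlap between the arrays of neighbours in either order. Such a separation of all 4 groups, in whichever order, was shown by 0.0802% of all genes, and the separation by diet within it follows from the choice of the genes. The margins were small. The closest neighbours for Clec2h were KI_MR, up to 78 units, and WT_MR, from 79 units. For Itih5 they were KI_MR, up to 115 units, and WT_CD, from 120 units. For Adgrf1 the order was WT_CD, KI_CD, KI_MR and WT_MR, where only the middle pair did not overlap. For Olfm3 it was WT_CD, KI_CD, WT_MR and KI_MR, with overlap between the first pair only. For Mei4 it was WT_MR, KI_MR, WT_CD and KI_CD, where again only the middle pair did not overlap.

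Among the 30 neighbours 3 were called for genotype as the mean of both diets (against 2.81% of all genes), all of them higher in KI mice. These were Itih2 beside Itih5, and Pla2g7 and Tnfrsf21 near Adgrf1. Pla2g7, which encodes a plasma phospholipase, differed by 0.67 ± 0.12 (limma adjusted p = 0.0228), a call lost without KI_MR replicate 3, KI_CD replicate 2, WT_CD replicate 1 or WT_CD replicate 3. Tnfrsf21, a death receptor gene, differed by 0.35 ± 0.08 (limma adjusted p = 0.0466), a call lost in 10 of 12 fits without an array, all but those without WT_MR replicate 3 or KI_MR replicate 1, and in 3 of 7 other alternatives. On each diet alone 0 of the 30 were called (5 on the restricted and 5 on the control diet at an unadjusted p under 0.05 in limma). Over all genes 0.471% were called on the restricted and 0.0802% on the control diet.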

How the data were processed

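Per the labels, total RNA of frozen liver was isolated with Trizol and RNeasy columns and labelled with biotin. The authors deposited linear intensities as whole numbers on a common scale between arrays. Their background correction and scaling are not given in the sources used here. Of 35512 probe sets, 21789 carried 1 gene symbol, 1621 several and 12102 none, and 21698 matched RefSeq by Entrez identifier with 0 symbols changed. The brightest probe set per gene gave 19938 genes. The log2 of the values was fitted without scaling in limma 3.58.1 (R 4.3.3), with 4 group means over 12 arrays, empirical Bayes, 8 residual degrees of freedom and Benjamini-Hochberg adjustment per contrast. The fit was tested on simulated data. The labels give no batch. The number of arrays limits the precision. Members and lists were chosen with earlier results of these data known. Named genes were the 5 members, the 3 genes most like each member, and some of the list genes past the threshold or brightest in their list. Genes of the sex-biased lists other than C6 are given only as sums, counts and ranges, also where they passed the threshold. Others named (C6, Clec2d, Col1a1, Col1a2, Col3a1, Des, Faah, Gldn, Itih3, Lum, Olfml1, Pdgfrb, Pfkfb3, Rec114, Reln, Spo11, and the 6 genes shared by both diet comparisons) were chosen after their values were seen. Alternatives were quantile normalization, median centring, log2(value + 16), leaving out the dimmest 25% of genes, the mean of probe sets, an intensity trend with robust prior, a block for replicate number, a fit of only the 6 arrays compared, and each array left out.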

Additional observations from a re-analysis of the deposited data

How the results depend on the processing

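The Itih5 genotype difference averaged over both diets was called in all 19 alternatives. On the restricted diet its 0.64 lost the call at 0.64 with quantile normalization, 0.67 with median centring, 0.54 with log2(value + 16) and 0.64 with the 6 compared arrays alone, and it lay between 0.59 and 0.73 when an array was left out (adjusted p = 0.0216 to 0.197 in limma). Clec2h as the mean of both diets was called at -0.46 without the dimmest 25% of genes and at -0.46 with the replicate block (adjusted p = 0.0341 in limma), and it lay between -0.54 and -0.37 when an array was left out (adjusted p = 0.0392 to 0.149 in limma). Adgrf1 as the mean of both diets, not called, ran from -0.16 to 0.01 when an array was left out. With log2(value + 16) the Mei4 diet difference was 0.40 in KI and 0.41 in WT mice and that of Adgrf1 in WT mice -2.01. Mei4 has no value without the dimmest 25% of genes, since it is among them. Counts of genes called moved more. The genotype average called 561 genes, 960 with the replicate block, and 138 (without KI_MR replicate 3) to 1945 (without WT_MR replicate 3) when an array was left out. Genotype on the control diet called 16, 31 without the dimmest 25% of genes, 26 with the trend and robust prior, 0 with the 6 compared arrays alone (2734 at an unadjusted p under 0.05 in limma), and 2 to 32 with an array left out. Genotype on the restricted diet called 94, 58 with median centring, 15 with the 6 arrays alone, 177 with the replicate block and 3 to 226 with an array left out. Diet in KI mice called 35, 18 with median centring, 0 with the 6 arrays alone (1472 at an unadjusted p under 0.05 in limma) and 7 to 94 with an array left out. Diet in WT mice called 65, 131 with the 6 arrays alone and 17 to 199 with an array left out. The cause of these shifts was not tested. The count shared by both diet comparisons, 11, for which the alternatives were chosen after seeing the data, was 7 with median centring, 6 with log2(value + 16), 0 with the 6 arrays alone and 4 to 50 with an array left out. Same-numbered arrays of different groups correlated in their deviations at -0.06 to 0.24 (median 0.1, above 0.1 in 8 of 18 pairs), and other pairs at -0.25 to 0.2 (median -0.04). Of 12 arrays, 7 correlated best with an array of their own number. The labels do not tie the numbers to a litter, day or batch and not every pair passed 0.1, so the block was kept as an alternative. Only processed values were at hand, so no other background correction was tried. Dim signal limits Mei4, and 3 arrays per group limit every value.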
